A study of Mus musculus with 36 samples.

Results

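Hmga2, Lin28a, Lin28b, Igf2bp1, Igf2bp2, Igf2bp3 and Trim71 are called heterochronic or oncofetal genes because embryonic cells use them and most adult cells do not. They were followed here in mouse embryonic gut. The members were taken by gene symbol, which found 7 of 7 names among the 23847 gene entries of each file. RNA was measured in dissected gut of C57BL/6J embryos at 3 stages named by days of gestation, E10.5, then E12.5, then E14.5. Labels give the genotype (wild type, Ret null) and the sex, which makes 12 groups of 3 libraries each and 36 in all. Ret is the receptor through which GDNF acts on enteric neural crest, and the labels name neither the Ret allele nor the number of embryos behind a library. Values are FPKM, fragments per kilobase of transcript scaled to depth, from poly(A) RNA. They can be compared between genes because they are divided by transcript length.

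The 2 Lin28 proteins bind the precursors of the let-7 microRNAs and block their maturation. Mature let-7 in turn binds matching sites in the 3′ untranslated regions (UTRs) of Lin28a, Lin28b, Hmga2, Igf2bp1 and Trim71, so the pathway can hold either an early or a late state. Hmga2 is a chromatin protein with AT-hooks that marks growing and progenitor cells. The Igf2bp proteins bind mRNAs, among them that of the growth factor Igf2, and steady or localise them. Trim71, the mouse relative of worm LIN-41, is an RNA-binding E3 ubiquitin ligase of early embryos. Lin28b and Hmga2 are known in the gut for fetal rather than adult epithelial and mesenchymal states.

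The let-7 family is shown because its seed (bases 2 to 8, in capitals) defines the match searched in the members. Of 11 distinct mature sequences in the RefSeq table (GRCm38.p6), 10 shared the seed GAGGUAG and let-7j had GAGGUAU. Let-7a-5p of Mirlet7a-1 lies at chr13:48538239-48538260 on the minus strand, let-7e-5p at chr17:17830366-17830387 on the plus strand, let-7g-5p at chr9:106178846-106178867 on the plus strand, miR-98-5p at chrX:151913229-151913250 on the plus strand and let-7j at chr3:140028281-140028304 on the plus strand.
let-7a-5p: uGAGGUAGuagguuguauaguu
let-7e-5p: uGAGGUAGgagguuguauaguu
let-7g-5p: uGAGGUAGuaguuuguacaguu
miR-98-5p: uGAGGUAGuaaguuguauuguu
let-7j: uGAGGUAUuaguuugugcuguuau

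The complement of that seed, CTACCTC, was searched on the sense strand of the 3′ UTR of 1 coding transcript per gene, the one with the longest 3′ UTR in GENCODE M21 (GRCm38). Such a match is a description of the letters and not a shown binding site. Of 21004 genes, 1896 (9.03%) held a match and 32 (0.152%) held 3 or more. Hmga2, Lin28b, Igf2bp1 and Trim71 held 4 matches each, Lin28a 2, and Igf2bp2 and Igf2bp3 1 each. Long UTRs hold more matches, so each member was set beside genes whose UTR length lies within 10% of its own. Each such set includes the member itself, which raises the share given. As many matches were found in 0.180% of 1113 such genes for Hmga2 (UTR of 3014 bases), 2.01% of 1194 for Lin28a, 0.494% of 607 for Lin28b, 0.410% of 244 for Igf2bp1 and 0.261% of 383 for Trim71. The same share was 11.3% of 1473 genes for Igf2bp2 and 14.3% of 1382 for Igf2bp3, so a single match is common in UTRs of their length.

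The first match of each member is printed below with the 22 bases before it and 1 after it, the match in capitals. All lie on the minus strand and in the 3′ UTR exon: Hmga2 at chr10:120364224-120364253, Lin28b at chr10:45381022-45381051, Igf2bp1 at chr11:95961778-95961807, Trim71 at chr9:114512472-114512501, Lin28a at chr4:134005189-134005218, Igf2bp2 at chr16:22059473-22059502 and Igf2bp3 at chr6:49086787-49086816. In each of them an A follows the match, which lies opposite the first base of let-7.
Hmga2: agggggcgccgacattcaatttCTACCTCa
Lin28b: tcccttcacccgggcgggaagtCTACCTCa
Igf2bp1: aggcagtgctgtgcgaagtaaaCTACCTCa
Trim71: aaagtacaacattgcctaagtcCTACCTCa
Lin28a: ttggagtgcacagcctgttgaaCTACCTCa
Igf2bp2: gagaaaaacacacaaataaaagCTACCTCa
Igf2bp3: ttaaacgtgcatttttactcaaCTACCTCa
Over all matches, an A follows 4 of 4 in Trim71, 3 of 4 in Igf2bp1, 2 of 2 in Lin28a and 1 of 4 each in Hmga2 and Lin28b. Matches 3 and 4 of Trim71 lie at chr9:114509047-114509076 and chr9:114509021-114509050, beyond the end of the Trim71 locus in the deposited files (chr9:114511273-114564369, mm10).

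Some libraries stood apart from their labels or their group. Of the 18 libraries labelled Ret null, 7 held Ret RNA at 4.74 to 6.49 FPKM (E10.5 female 1, 2 and 3, E12.5 male 2, E14.5 female 1 and 3 and male 1), while the other 11 lay at 0.0111 to 0.0587 and wild type at 2.11 to 13.3. Directions below refer to the libraries as labelled, and calls of members that rest on the 7 are given without them too. Counts for marker, pathway and let-7 match lists are given as labelled only. Sex genes went against the label in 4 libraries. Xist and Ddx3y both did in E10.5 labelled Ret null female 3 and male 1, while E12.5 wild-type females 1 and 2 held Xist (49.1 and 52.2 FPKM) and Ddx3y (4.91 and 4.98) together. In 4 replicate pairs the libraries differed by about the counting noise, 0.903 to 1.08 times, so their means stood for 1 sample each and n is 32 in all. E14.5 labelled Ret null males 2 and 3 stood as close, at 1.05 times, but 1.57% of their genes lay over 3 SD apart. They were kept as separate samples, since the limit, set with the data in view, was 1%. Both lack Ret RNA, so E14.5 results without the 7 lean on them. Depth, read back from how wide the deposited FPKM intervals are, was 4.88 to 41.0 M fragments: 6.75 to 17.8 M at E10.5, 17.5 to 41.0 M at E12.5 and 4.88 to 8.09 M at E14.5. Depth thus went with stage. Nothing in the labels ties each library to an embryo of its own, and p-values rest on sample-to-sample spread that may be technical. In bulk tissue, fewer cells that express a gene and less RNA per cell cannot be told apart.

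**Figure D1:**
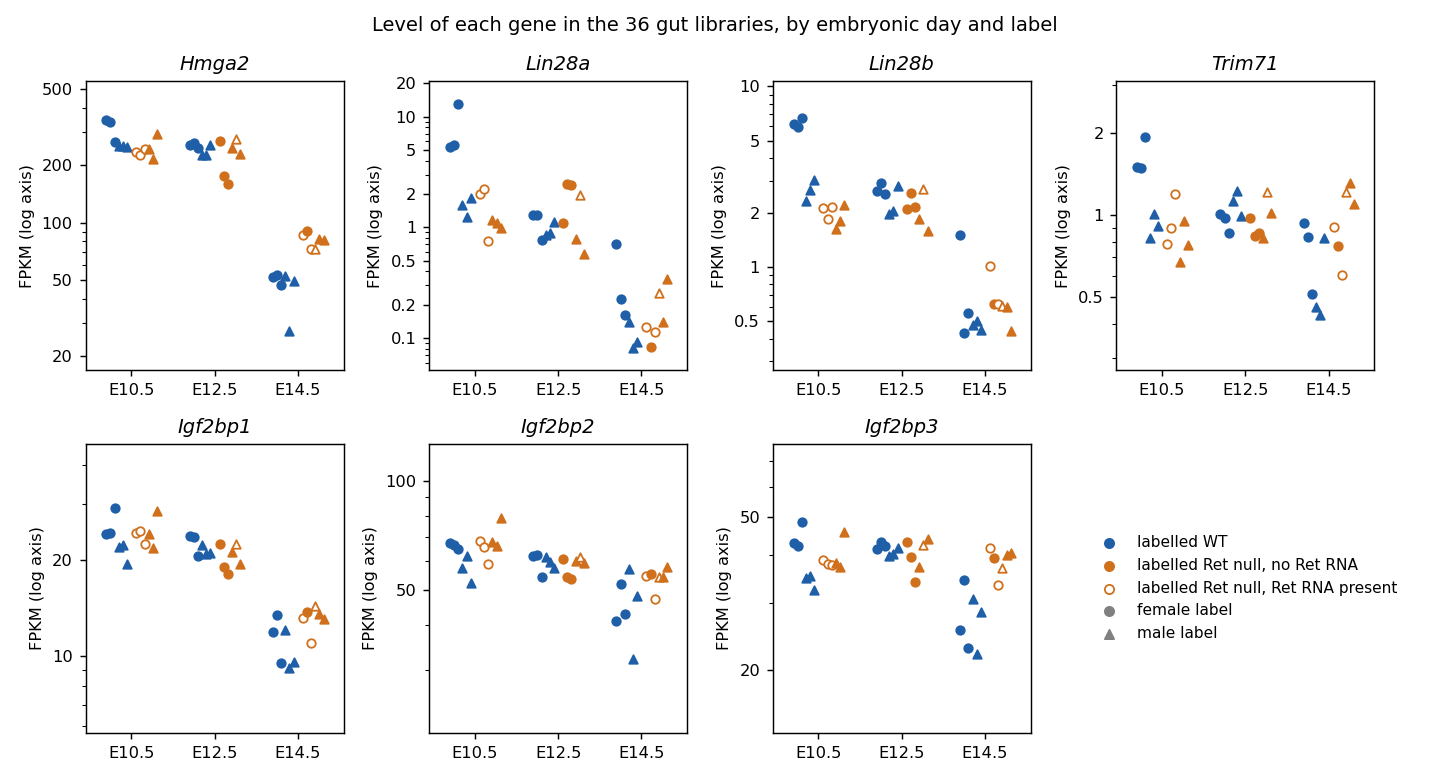
FPKM (log axis) of the 7 genes in each of the 36 libraries by embryonic day. Blue symbols are wild type and orange symbols labelled Ret null (open where Ret RNA was present), circles female and triangles male labels. Hmga2, Lin28a, Lin28b and Igf2bp1 drop at E14.5, where Hmga2 lies at 27.0 to 53.3 in wild type and 72.6 to 90.7 in the label Ret null.

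Hmga2 was the most abundant member at E10.5 and E12.5. It read 346, 338 and 267 FPKM in E10.5 wild-type females and 252, 251 and 249 in the males. At E12.5 it read 254, 261 and 248 in wild-type females and 226, 226 and 255 in males. The 2 stages overlapped. At E14.5 it read 51.9, 53.3 and 47.1 in females and 52.7, 27.0 and 49.4 in males, so every E14.5 wild-type library lay below every earlier one. In libraries labelled Ret null the values were 216 to 293 at E10.5 (median 239), 159 to 275 at E12.5 (median 238) and 72.6 to 90.7 at E14.5 (median 81.7).

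The Igf2bp family followed Hmga2 in level, in a fixed order. Igf2bp2 lay at 52.2 to 79.1 FPKM at E10.5, Igf2bp3 at 32.4 to 48.6 and Igf2bp1 at 19.4 to 29.1 over both labelled genotypes. The order Hmga2, Igf2bp2, Igf2bp3, Igf2bp1 held in 6 of 6 libraries of every stage and genotype except E14.5 wild type. There it held in 4 of 6, since Igf2bp2 stood above Hmga2 in 2. Hmga2 was 4.06 to 5.15 times Igf2bp2 in E10.5 wild type, 0.839 to 1.27 times in E14.5 wild type and 1.34 to 1.64 times in E14.5 libraries labelled Ret null. The summed FPKM of the 3 Igf2bp genes was 104 to 143 in E10.5 wild type and 63.4 to 99.9 in E14.5 wild type, against 91.4 to 111 in E14.5 libraries labelled Ret null.

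The Lin28 genes and Trim71 were far lower. Lin28b read 6.16, 5.95 and 6.69 FPKM in E10.5 wild-type females and 2.32, 2.66 and 3.03 in the males. Lin28a read 5.32, 5.57 and 13.1 in those females and 1.57, 1.25 and 1.84 in the males. The wild-type females thus stood apart from the other 9 E10.5 libraries in both genes, which reached at most 2.20 for Lin28a and 3.03 for Lin28b. At E14.5 Lin28a lay at 0.0818 to 0.712 and Lin28b at 0.428 to 1.51 in wild type. Trim71 lay near 1 FPKM at most stages, with 0.673 to 1.94 at E10.5 and 0.431 to 1.31 at E14.5. At such levels the counting error is large: the authors' interval for Lin28a in E14.5 wild-type male 1, for example, runs from 0.0265 to 0.239 around 0.1395. Lin28b exceeded Lin28a in 6 of 6 libraries of E12.5 and E14.5 wild type and of E14.5 labelled Ret null, and in 5 of 6 of the other 3 sets.

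The stage comparison asks when the embryonic set declines. Between E12.5 and E14.5 in wild type, 7 of 7 members fell (limma, adjusted p under 0.05 over all genes). Hmga2 fell furthest, from 242 ± 15.7 FPKM (SD, n = 5) to 46.9 ± 10.005 (SD, n = 6). Of the 14321 genes tested, 27.9% were lower and 31% higher in this comparison, so a lower call is common at this step. Upper-quartile scaling moved the median of all genes from 0.02 to -0.10 on the log2 scale and the split from 4439 higher and 3992 lower to 3280 and 5693, quantile normalization to 3462 and 5507, and 7 of 7 members were lower under each. The median member changed by -0.70 against 0.02 for all genes. Several marker lists rose at the same step. Higher were 11 of 14 epithelial genes (summed level 206 to 327 FPKM at E12.5 and 637 to 1310 at E14.5) and 9 of 10 smooth muscle genes (256 to 1038 and 854 to 1633). So were 9 of 10 macrophage genes (37.4 to 68.3 and 90.4 to 119), 7 of 10 endothelial genes (121 to 162 and 159 to 311) and 7 of 10 pancreas genes (2.14 to 111 and 110 to 787). Other lists moved less or both ways. Of 15 enteric crest and neuron genes 1 was higher and 3 lower, and of 7 stomach genes 2 were higher and 1 lower. Of 13 erythroid entries 5 were higher and 3 lower. Of 10 liver genes 3 were higher, and of 17 cell cycle genes 6 were lower. No gene of these lists was at 0 in all libraries of either stage, 1 smooth muscle gene was lower, and their part in the members' fall was not tested.

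On the log2(FPKM + 1) scale Hmga2 changed by -2.39 ± 0.139 (SE, limma, adjusted p = 1.61e-11). Lin28b changed by -1.09 ± 0.122 (limma, adjusted p = 1.12e-07) and Lin28a by -0.70 ± 0.192 (adjusted p = 0.0033). The pseudocount of 1 understates the change of such low genes: with 0.1 the values were -1.89 and -1.90. Igf2bp1 changed by -0.95 ± 0.0904 (limma, adjusted p = 1.34e-08), Igf2bp3 by -0.60 ± 0.0947 (adjusted p = 1.19e-05) and Igf2bp2 by -0.39 ± 0.0980 (adjusted p = 0.00171). Trim71, at 1.04 ± 0.140 FPKM (n = 5) and then 0.666 ± 0.223 (n = 6), changed by -0.28 (limma, adjusted p = 0.00834). Library ranges did not overlap for 5 members and overlapped for Igf2bp2 and Trim71, against 17% of all genes lower without overlap. Within males alone 7 of 7 were lower. Within females 5 of 7 were, while Lin28a (-0.58, limma, adjusted p = 0.108) and Trim71 (-0.14, 0.43) did not pass.

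Between E10.5 and E12.5 in wild type only Lin28a and Lin28b of the 7 fell, where 1.82% of genes tested were lower and 2.75% higher. Upper-quartile scaling changed that split from 394 higher and 260 lower to 679 and 221. Lin28a changed by -1.33 ± 0.213 (limma, adjusted p = 0.000765) and Lin28b by -0.61 ± 0.135 (adjusted p = 0.00963). Each change rested on the E10.5 females. Within females it was -2.25 for Lin28a and -1.01 for Lin28b, within males -0.42 (limma, adjusted p = 0.434) and -0.21 (adjusted p = 0.558). Lin28b also missed the threshold without E10.5 wild-type female 3 (limma, adjusted p = 0.0508), without male 5 (0.0573) or without E12.5 wild-type female 3 (0.0511), and with a pseudocount of 0.1 (-0.76, adjusted p = 0.0597). Hmga2 (-0.17), Igf2bp1 (-0.11), Igf2bp2 (-0.04), Igf2bp3 (0.08) and Trim71 (-0.18) did not pass the test.

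Over the whole interval from E10.5 to E14.5 in wild type 7 of 7 members were lower, against 26.3% of genes lower and 30.5% higher. Lin28a changed by -2.04, Lin28b by -1.70, Hmga2 by -2.56 and Igf2bp1 by -1.05, where the pseudocount again understates the Lin28 changes. Igf2bp2 (-0.43), Igf2bp3 (-0.52) and Trim71 (-0.46) were lower too, but not within males alone. Upper-quartile scaling changed the split of all genes from 4362 higher and 3760 lower to 3466 and 4951, and quantile normalization to 3402 and 5253.

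Libraries labelled Ret null gave a shorter list. From E12.5 to E14.5, 4 of 7 members fell, where 11.8% of genes were lower and 23.2% higher. They were Hmga2 (-1.44 ± 0.131, limma, adjusted p = 3.15e-08), Lin28a (-1.05), Lin28b (-0.93) and Igf2bp1 (-0.60). The pseudocount of 1 understates the Lin28 changes here too. Mean Lin28a went from 1.55 to 0.176 FPKM and mean Lin28b from 2.16 to 0.650, against 226 to 80.9 for Hmga2. Igf2bp2 (-0.11), Igf2bp3 (-0.05) and Trim71 (0.01) did not pass. Igf2bp3 read 33.9 to 44.0 FPKM at E12.5 and 33.3 to 41.6 at E14.5, with wide overlap. The 4 that fell had ranges without overlap, as did 3.46% of genes. The same 4 members passed without the 7 Ret-holding libraries, at -1.32, -0.94, -0.92 and -0.54, where 7.75% of genes were lower. Upper-quartile scaling changed the split from 3324 higher and 1683 lower to 1943 and 4623, and quantile normalization to 2349 and 3063.

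From E10.5 to E12.5 none of the 7 members was called in libraries labelled Ret null, where 0.88% of genes were higher and 2.48% lower (limma). At an unadjusted limma p under 0.05 only Igf2bp1 passed, at -0.23. Upper-quartile scaling changed that split from 126 higher and 355 lower to 1798 and 183. From E10.5 to E14.5, 5 of 7 were lower, against 13.5% of genes lower and 25.6% higher. They were Hmga2 (-1.58), Lin28a (-0.91), Lin28b (-0.85), Igf2bp1 (-0.84) and Igf2bp2 (-0.30), where the pseudocount again understates the Lin28 changes. Igf2bp2 missed the threshold in 3 of 22 alternatives (limma, adjusted p up to 0.236). Among them were leaving out the averaged E10.5 females 1 and 2 (limma, adjusted p = 0.0867) and the 7 Ret-holding libraries (0.13). The latter compares males only, since no E10.5 female labelled Ret null is left, and 10.3% of genes were lower there. The split of all genes over this interval was 3666 higher and 1939 lower, 2967 and 2694 under upper-quartile scaling and 2525 and 3316 under quantile normalization.

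**Figure D2:**
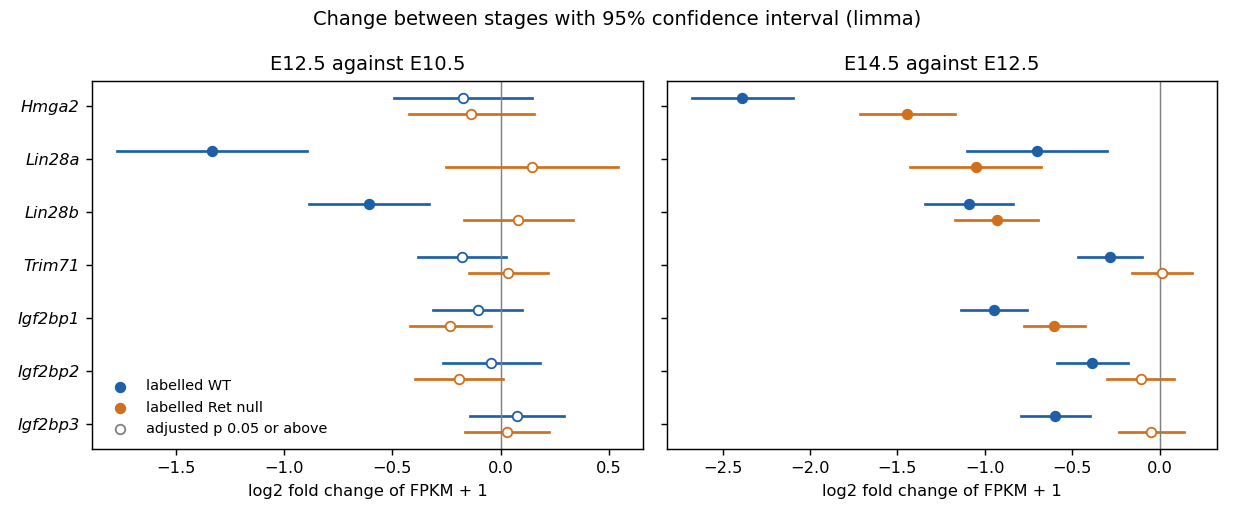
Log2 fold change of FPKM + 1 between stages (x axis) for each gene, with 95% confidence intervals from limma, for wild type (blue) and libraries labelled Ret null (orange). Filled points have adjusted p under 0.05. In the later step all 7 wild-type points lie left of 0, from -0.28 to -2.39.

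The interaction asks whether the labelled genotypes changed differently between stages. Between E12.5 and E14.5 it was called for 2 of 7 members, Hmga2 and Igf2bp3, each falling less in libraries labelled Ret null; 11.2% of genes were higher and 6.19% lower. It was 0.94 ± 0.192 for Hmga2 (SE, limma, adjusted p = 0.00436) and 0.55 ± 0.130 for Igf2bp3 (adjusted p = 0.009). Without the 7 Ret-holding libraries the values were 1.07 (limma, adjusted p = 0.00801) and 0.60 (adjusted p = 0.0169), where 10.7% of genes were higher. Igf2bp1 (0.35, limma, adjusted p = 0.0565), Trim71 (0.30, 0.0888) and Igf2bp2 (0.28, 0.15) did not pass. Within males neither Hmga2 (0.82, limma, adjusted p = 0.173) nor Igf2bp3 (0.51, 0.186) passed. Within females Hmga2 did (1.06, limma, adjusted p = 0.0304) and Igf2bp3 did not (0.59, adjusted p = 0.0624).

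Between E10.5 and E12.5 the interaction was called for Lin28a alone, at 1.48 ± 0.287 (SE, limma, adjusted p = 0.0111), where 0.545% of genes were higher and 0.796% lower. Lin28b gave 0.69 (limma, adjusted p = 0.0592). Without the 7 Ret-holding libraries Lin28a gave 0.11 (limma, adjusted p = 0.95), where 0% of genes were higher. This leaves no E10.5 female labelled Ret null, so it compares males only and cannot separate Ret RNA from sex label. Without E10.5 labelled Ret null female 3 alone Lin28a gave 1.27 (limma, adjusted p = 0.0571). Upper-quartile scaling changed the split of all genes from 78 higher and 114 lower to 109 and 90, and Lin28b then passed (0.73, limma, adjusted p = 0.0402).

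At E14.5 itself Hmga2 was higher in libraries labelled Ret null. It read 86.1, 90.7 and 72.8 FPKM in females and 72.6, 82.4 and 81.0 in males, above every wild-type library (27.0 to 53.3). The 3 Ret-holding libraries among them read 86.1, 72.8 and 72.6. The 3 without Ret read 90.7, 82.4 and 81.0, the last 2 in the close males 2 and 3. The difference was 0.80 ± 0.141 (log2, SE, limma, adjusted p = 0.0108), which is 1.75-fold, and higher in 6 of 6 samples. Of 13861 genes tested 10.9% were higher and 4.84% lower, and 4.82% were higher without overlap. Upper-quartile scaling changed the split from 1504 higher and 671 lower to 861 and 761, with Hmga2 still called (0.78). Without the 7 Ret-holding libraries, where 3.96% of genes were higher, Hmga2 stood at 0.90 (limma, adjusted p = 0.038). It stood within females at 0.70 (0.105) and within males at 0.91 (0.0789).

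Of the Igf2bp genes at E14.5, Igf2bp3 was higher, which makes 2 of 5 members tested, against 10.9% of all genes. It read 41.6, 39.2 and 33.3 FPKM in females and 37.0, 40.0 and 40.5 in males labelled Ret null, against 25.4, 34.4 and 22.9 and 30.7, 21.996 and 28.3 in wild type. Only the lowest library of the first set, 33.3, lay below the highest of the second, 34.4. The difference was 0.50 ± 0.109 (limma, adjusted p = 0.0183). It missed the threshold without the 7 Ret-holding libraries (0.54, limma, adjusted p = 0.0602), without E14.5 labelled Ret null female 1 (0.0504) or male 3 (0.0502), and within females (0.14) or males (0.108).

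Igf2bp1 (0.25, 95% interval 0.0449 to 0.464, limma, adjusted p = 0.0853), Igf2bp2 (0.26, adjusted p = 0.145) and Trim71 (0.25, adjusted p = 0.122) did not pass at E14.5. Trim71 passed under quantile normalization (0.35, limma, adjusted p = 0.0488) and Igf2bp1 without E14.5 labelled Ret null female 3 (0.30, adjusted p = 0.0449). In the fit of all libraries 5 members were called higher, Igf2bp1, Igf2bp2 and Trim71 among them. Lin28a and Lin28b lay under the filter of 1 FPKM in 3 samples and were not tested. Without the filter their differences were -0.06 and 0.02 (limma, adjusted p = 0.701 and 0.925). Lin28b read 0.443 to 1.01 in libraries labelled Ret null and 0.428 to 1.51 in wild type.

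Markers of other tissues moved with the label at E14.5. Of the erythroid list, 5 of 13 entries were lower in libraries labelled Ret null, with a summed level of 2391 to 6018 FPKM against 4334 to 29512 in wild type. Of the pancreas list 4 of 10 were lower (summed level 125 to 252 against 110 to 787) and of the macrophage list 4 of 10 (61.1 to 96.2 against 90.4 to 119). The median liver gene differed by -1.11 (summed level 68.7 to 206 against 105 to 3326), with 1 of 10 called lower. No gene of these lists was at 0 throughout either group. Of 17 cell cycle genes 1 was higher and none lower. Wild type had 4.88 to 6.79 M fragments and the label Ret null 6.19 to 8.09 M. The part of these lists and of depth in the Hmga2 and Igf2bp3 differences was not tested.

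At E10.5 the Lin28 genes were lower in libraries labelled Ret null, 2 of 7 members where 2.67% of genes were lower and 5.61% higher. Lin28b read 2.11, 1.84 and 2.16 FPKM in females and 1.62, 1.79 and 2.19 in males labelled Ret null, below all 6 wild-type libraries; 2.34% of genes were lower without overlap. The difference was -0.83 ± 0.0924 (limma, adjusted p = 0.00407). Lin28a read 1.99, 2.20 and 0.758 in females and 1.16, 1.09 and 0.986 in males, overlapping wild-type males at 1.25 to 1.84. The difference was -1.18 ± 0.248 (limma, adjusted p = 0.0319).

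The E10.5 differences followed the wild-type females. Within females they were -2.03 for Lin28a (limma, adjusted p = 0.0215) and -1.26 for Lin28b (adjusted p = 0.00579), within males -0.34 (0.623) and -0.39 (0.188). Without the Ret-holding libraries, which removes all 3 females labelled Ret null, they were again -0.34 (limma, adjusted p = 0.549) and -0.39 (0.173), where 0.069% of genes were lower. Lin28a missed the threshold in 11 of 21 alternatives: leaving out E10.5 labelled Ret null female 3 gave an adjusted p of 0.0518 (limma), male 1 0.0718, male 2 0.0658, male 3 0.0687, wild-type males 3 and 4 0.0797 and male 5 0.112. Upper-quartile scaling changed the split of all genes from 739 higher and 352 lower to 540 and 1073. Hmga2 (-0.18), Igf2bp1 (0.04), Igf2bp2 (0.13), Igf2bp3 (0.00) and Trim71 (-0.26) did not pass.

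Several marker lists moved with the same libraries at E10.5. Of 10 smooth muscle genes 8 were higher in libraries labelled Ret null, with a summed level of 396 to 542 FPKM against 125 to 261 in wild type. Of 14 epithelial genes 9 were higher. As the mean log2(FPKM + 1) of its genes, the smooth muscle list stood at 3.05, 3.09 and 2.65 in wild-type females, 3.87, 3.90 and 3.86 in wild-type males and 4.54 to 5.001 in the label Ret null. Lin28b thus stood highest where smooth muscle genes stood lowest. Within wild type the epithelial list went the other way. By the same measure it stood at 2.82, 2.85 and 3.15 in females and at most at 2.62 in males. In the label Ret null the epithelial list stood at 3.29 to 3.84. In wild type the same smooth muscle list rose with stage, to 4.09 to 5.70 at E12.5, where 7 of 10 genes were higher and 1 lower. The liver list stood at 5.03, 5.07 and 5.45 in wild-type females and at 1.62 to 1.69 in wild-type males. In the label Ret null it stood at 4.45, 4.45 and 3.59 in females and 1.96, 4.35 and 4.70 in males, where Lin28b read 1.62 to 2.19 FPKM. Wild-type females also had 13.6 to 17.8 M fragments against 6.88 to 7.52 M in the males. Label, developmental progress of the embryo and the makeup of the dissection cannot be told apart here.

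At E12.5 none of the 7 members was called between the labelled genotypes (limma), where 1 of 13182 genes was (0.00759%). None had an unadjusted p under 0.05 either. The largest difference was that of Lin28a, 0.29 (95% interval -0.148 to 0.738). Hmga2 differed by -0.14 (-0.418 to 0.139) and Igf2bp3 by -0.05 (-0.197 to 0.0951).

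**Figure D3:**
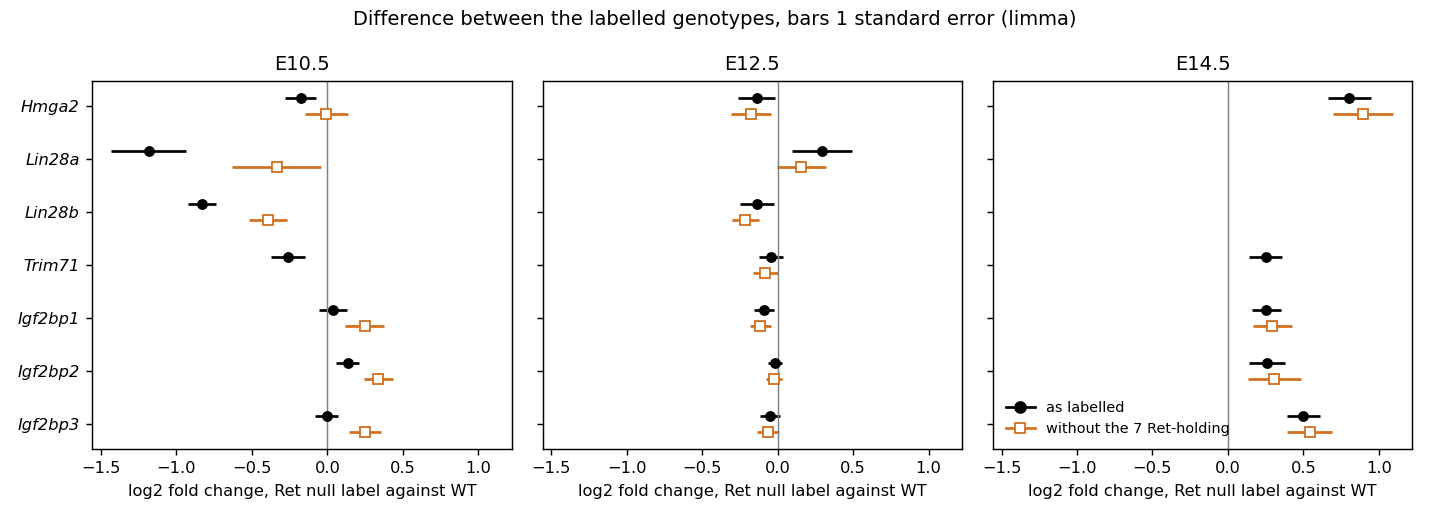
Log2 fold change of FPKM + 1, label Ret null against wild type, at each stage, with bars of 1 standard error (limma), for all libraries (black circles) and without the 7 Ret-holding ones (orange squares). Lin28a and Lin28b stand left of 0 at E10.5 and nearer to it without the 7, where E10.5 compares males only. Hmga2 stands at 0.80 and 0.90 at E14.5. Genes under the level filter have no point.

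Within E12.5, Lin28a varied together with germ cell markers and with the makeup of the dissection. Primordial germ cells, which cross the hindgut on their way to the gonads, use Lin28a, Pou5f1 and Dppa3. In libraries labelled Ret null Lin28a read 2.48, 2.41 and 1.96 FPKM in female 2, female 3 and male 2, where Pou5f1 read 3.81, 4.68 and 4.68 and Dppa3 7.02, 5.39 and 7.43. Lin28a read 1.0977, 0.788 and 0.569 in female 1, male 1 and male 3, where Pou5f1 read 0, 1.74 and 0.0598. The mesonephros and gonad list, as mean log2(FPKM + 1), stood at 2.46, 2.45 and 2.49 in the first 3 of these libraries and at 1.42, 2.01 and 1.43 in the other 3. The stomach list stood at 1.13, 1.13 and 1.37 against 2.92, 2.62 and 3.05. In the 6 wild-type libraries Pou5f1 reached at most 0.0959 and Lin28a lay at 0.763 to 1.30, so Lin28a RNA was present where these markers were near 0. At E10.5 the highest Lin28a value, 13.1 in wild-type female 3, stood beside 0.720 for Pou5f1, 0.216 for Dppa3 and 7.36 for Sall4, a zinc finger gene of early embryos and progenitors. Yet E10.5 labelled Ret null male 3 held Sall4 at 6.15 and Lin28a at 0.986. In E10.5 females labelled Ret null, Lin28a at 1.99, 2.20 and 0.758 stood beside Pou5f1 at 5.48, 5.18 and 0.106. In E10.5 wild-type males, Lin28a at 1.57, 1.25 and 1.84 stood beside Pou5f1 at 3.60, 2.73 and 0.873. At E14.5 Dppa3 was listed at 0 in all 12 libraries and Pou5f1 in 10. The part of germ cells, gonad and stomach in the Lin28a values was not tested.

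**Figure D4:**
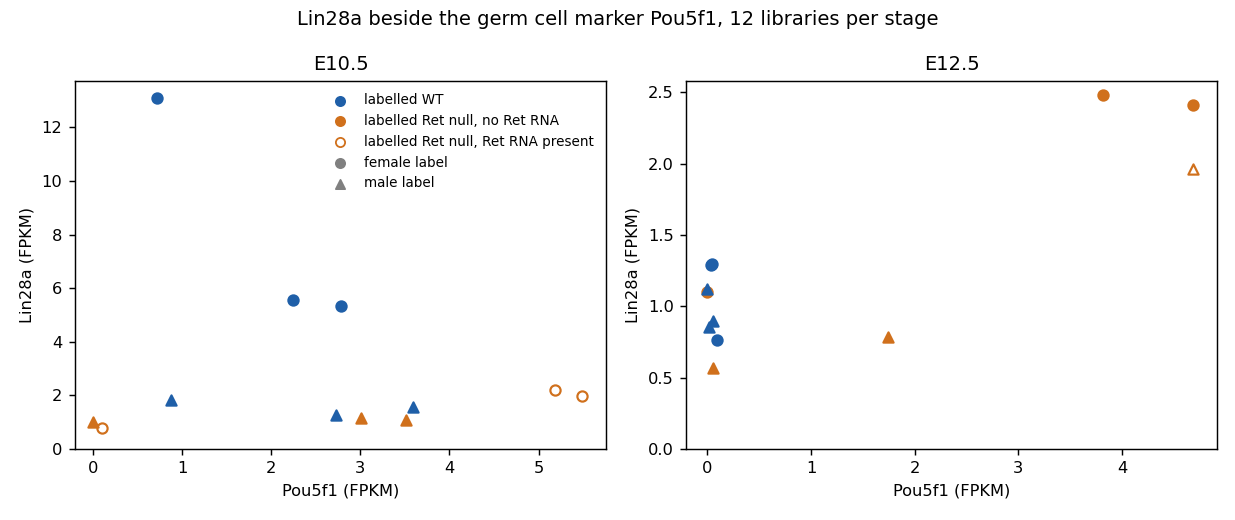
Lin28a against the germ cell marker Pou5f1, both in FPKM, in the 12 libraries of E10.5 (left) and E12.5 (right), with colours and shapes as in the plot of levels. At E12.5 the 3 libraries with Pou5f1 of 3.81 to 4.68 have the 3 highest Lin28a values, and at E10.5 the highest Lin28a value, 13.1, has Pou5f1 at 0.720.

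Let-7 itself could not be followed. Of 12 let-7 precursor entries in the files 11 were listed at 0 in all 36 libraries, and the other reached 21.8 FPKM in 1 library; poly(A) libraries do not hold mature microRNAs. Genes with let-7 matches were counted instead. In wild type from E12.5 to E14.5, 14 of 24 tested genes with 3 or more matches were lower and 2 higher, median -0.29. The members supply 4 of these, and without them 10 of 20 were lower (50%) and 2 higher, median -0.20. The share lower was 42.8% of 145 genes with 2 matches, 30.6% of 1188 with 1 and 27.3% of 11608 with none. UTR length went with the number of matches: its median was 1055 bases with none, 2177 with 1, 3518 with 2 and 4462 with 3 or more, and its part in these shares was not tested.

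In libraries labelled Ret null the same step gave 8 of 20 lower without the members (40%), 17.9% with 2 matches, 13.5% with 1 and 11.5% with none, but the median of the 20 was 0.00. The label difference at E14.5 showed 1 of 18 genes with 3 or more matches higher without the members and none lower, against 10.8% and 4.96% of genes without a match.

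**Figure D5:**
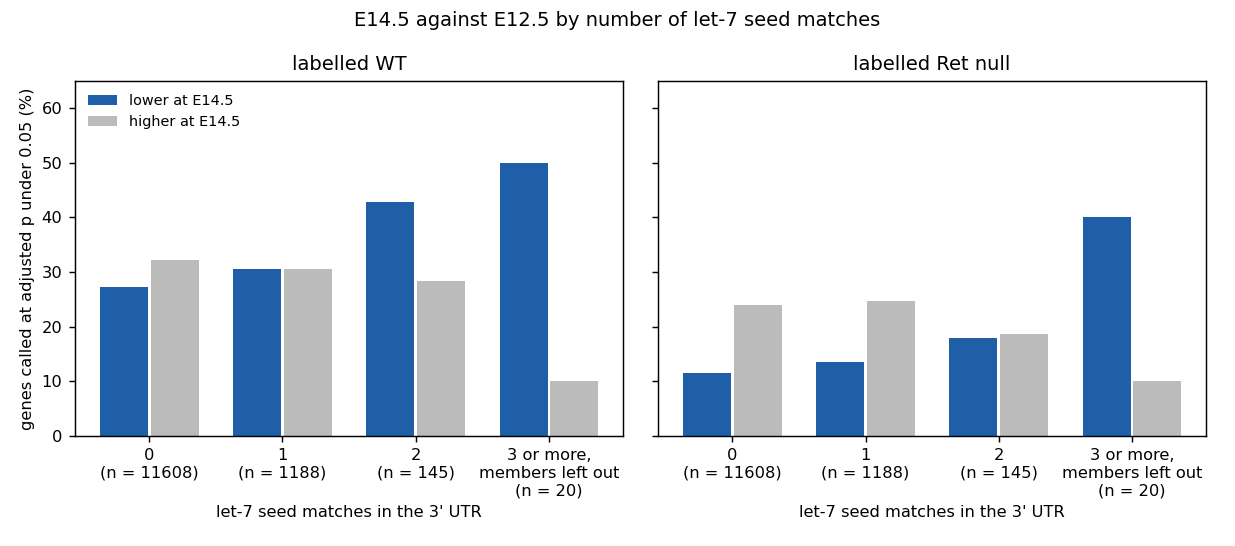
Percent of tested genes called lower (blue) or higher (grey) at E14.5 than at E12.5, by the number of let-7 seed matches in the 3′ UTR (x axis, number of genes in brackets), in wild type and in libraries labelled Ret null. The share lower is 27.3% without a match and 50% with 3 or more (members left out) in wild type, and 11.5% and 40% in the label Ret null.

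Other known let-7 targets, a list without the members, fell in part at the same step. In wild type from E12.5 to E14.5, 13 of 24 tested were lower and 4 higher, median -0.24, against 27.9% of all genes lower and 31% higher. Tgfbr1, a TGF-beta receptor, changed by -0.92, and the E2F factors E2f5 and E2f6 by -0.77 and -0.54. Against them Myc rose by 0.46, the zinc finger gene Plagl2 by 0.41 and Thbs1, a matrix glycoprotein, by 0.59. In libraries labelled Ret null 8 of 24 were lower, against 11.8% of all genes, and 2 higher, among the former Igdcc3 (-1.08), a receptor of the immunoglobulin superfamily. At E10.5, 4 of 25 were lower in libraries labelled Ret null, against 2.67% of all genes, among them Igdcc3 (-1.13) and Fignl2 (-0.67). At E14.5, 4 of 25 (16%) were higher there, near the 10.9% of all genes, so the count says nothing particular to the list. It includes Hmga1 (0.53), the close relative of Hmga2, which read 71.0 ± 3.47 FPKM against 49.4 ± 7.63 (SD, n = 6 each).

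Of 16 genes that act on let-7 or other microRNA precursors, 10 were lower, 1 higher and 5 not called in wild type from E12.5 to E14.5, where 27.9% of all genes were lower. Zcchc11 (Tut4), the enzyme that adds uridines to precursors held by Lin28a, changed by -0.95, from 29.1 ± 2.14 FPKM (SD, n = 5) to 14.8 ± 1.80 (n = 6). Hnrnpa1, which binds let-7 precursors, changed by -0.89 and Dicer1, which cuts them, by -0.68. The Argonaute gene Eif2c4 rose by 0.27. In libraries labelled Ret null 5 of 16 were lower, against 11.8% of all genes, with Zcchc11 at -0.31, and Eif2c4 was higher at 0.31. The interaction was called for 8 of 16, all higher in the label Ret null (Zcchc11 0.64 and Dicer1 0.47), where 11.2% of all genes were higher. At E14.5, 4 of 16 were higher there, against 10.9% of all genes, with Zcchc11 at 0.46, Dicer1 at 0.41 and Prkra, a partner of Dicer, at 0.30.

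The insulin-like growth factor genes, whose RNAs the Igf2bp proteins bind, did not move one way. In wild type from E12.5 to E14.5, 3 of 15 rose and 3 fell, against 31% of all genes higher and 27.9% lower. These counts say nothing particular to the list. The binding proteins Igfbp7 and Igfbp6 rose by 3.06 and 1.81 and the noncoding RNA H19 by 0.73. Igfbp5 (-0.41) and the receptors Igf1r (-0.41) and Insr (-0.26) fell. Igf2 itself changed by 0.15 (limma, adjusted p = 0.25). At E14.5 Igfbp7 (-0.68) and Igfbp6 (-0.79) were lower in libraries labelled Ret null. Of 12 tested early embryo and germ cell genes, Sall4 changed by -1.22 and Nanos3 by -0.36 in wild type, and Prdm1 rose by 0.86. In libraries labelled Ret null 9 of the 12 fell and 1 rose, with Sall4 at -1.14, against 11.8% of all genes lower and 23.2% higher. At E12.5 the germ cell marker Pou5f1 reached 4.68 FPKM in libraries labelled Ret null and 0.0959 in wild type. The part of germ cells in these counts was not tested.

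Over the 12 group means of log2(FPKM + 1), Hmga2 and Igf2bp1 followed each other closely (Pearson r = 0.981), as did Lin28a and Lin28b (r = 0.940). These groups share the stage shift, and many genes follow it, so r is given as a description. By rank among 14320 genes, Igf2bp1 was number 21 for Hmga2, and Lin28b number 9 for Lin28a. The genes most like each member were Ift80 (0.990) for Hmga2, Ly75 (0.963) for Lin28a, Ugcg (0.974) for Lin28b, Ccdc55 (0.995) for Igf2bp1, Bend3 (0.984) for Igf2bp2, Ppp2r5e (0.979) for Igf2bp3 and Sdad1 (0.949) for Trim71. Trim71 followed Hmga2 least of the members (r = 0.563).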

How the data were processed

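The deposited files hold gene-level FPKM values with an interval, computed by the authors, per the file headers. Poly(A) selection and TruSeq libraries, paired end on a HiSeq 2000, are per the labels' protocols, and Picard, TopHat2, Cufflinks, Cuffdiff and mm10 per the submitters' processing notes. Settings and any scaling between libraries: not given in the sources used here. Close replicate pairs (spread within 1.1 times counting noise, and no more than 1% of genes over 3 SD apart) were averaged, a limit set with the data in view.

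limma 3.58.1 (R 4.3.3) was fitted on log2(FPKM + 1) with a mean-variance trend over genes reaching 1 FPKM in 3 or more samples, and Benjamini-Hochberg adjusted p under 0.05 was called. Tests are two-sided. Genotype contrasts were fitted within each stage and averaged over sex, and stage and interaction contrasts came from all samples in 12 group means. The fit was tested on simulated data. Alternatives were another pseudocount, filter, scaling, fit and replicate block, leaving out libraries, and, added after seeing the data, each sex alone.

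Named genes are the members, per list up to 3 genes in each direction with the smallest adjusted p, and the genes most like each member. The members and lists were chosen with earlier results of these data known. Sequences come from RefSeq tables and GENCODE M21 with GRCm38. Tables were made with pandas 2.3.3 and numpy 2.4.6, plots with matplotlib 3.10.9, in Python 3.11.15.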

Additional observations from a re-analysis of the deposited data

Results flagged for a closer look

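In 42 sets of 4 to 6 samples (7 genes, 3 stages, 2 labelled genotypes), 6 held a sample far from the others by Dixon's 95% criterion, which chance alone marks in about 1 of 20 sets. Hmga2 stood lowest at 27.0 FPKM in E14.5 wild-type male 2. Lin28a (0.712) and Lin28b (1.51) stood highest in E14.5 wild-type female 1. That library also had the highest mean level of the liver list, 7.51 as mean log2(FPKM + 1) against 2.75 to 4.33 in the other wild-type libraries of that stage, and of the erythroid list, 6.64 against 4.06 to 5.79. It stood apart too in the mesonephros and gonad list, 3.42 against 1.36 to 2.31, and in the stomach list, 1.19 against 2.63 to 3.28, and held Pou5f1 at 0.249 FPKM. The part of these cells in its Lin28 values was not tested. Lin28b stood highest at 1.01 in E14.5 labelled Ret null female 1, which had the highest liver list of its set (3.94). Igf2bp2 stood lowest at 47.2 in E14.5 labelled Ret null female 3. Igf2bp3 stood highest at 45.7 in E10.5 labelled Ret null male 3.

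The change between stages differed by labelled genotype for 3 members, by a test of the interaction with limma. It was 1.48 for Lin28a between E10.5 and E12.5, and 0.94 for Hmga2 and 0.55 for Igf2bp3 between E12.5 and E14.5. Of all genes tested, 0.545% were higher in the earlier interaction and 11.2% in the later one. Without the 7 Ret-holding libraries, which leaves a comparison of males only, Lin28a gave 0.11 (limma, adjusted p = 0.95). Within males none of these interactions was called.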

How the results depend on the processing

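No member changed direction in a called result under any alternative run. Some uncalled differences near 0 changed sign. The fall of 7 of 7 members from E12.5 to E14.5 in wild type, and of 4 of 7 in libraries labelled Ret null, kept its count when each sample was left out.

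Counts of all genes called moved by over 1.5 times as follows, where the early step is E12.5 against E10.5 and the late step E14.5 against E12.5. Counting every library gave 1829 for wild type E12.5 against E10.5 (654 as reported), 1405 for the same step labelled Ret null (481), 769 for the early interaction (192), 3774 for genotype at E10.5 (1091) and 0 at E12.5 (1). Without the 7 Ret-holding libraries the counts were 13 for the early step labelled Ret null, 3331 for the late step (5007), 1 for the early interaction, and 68 for genotype at E10.5, 34 at E12.5 and 1182 at E14.5 (2175). Of these, the early step, the early interaction and genotype at E10.5 compare males only, since no E10.5 female labelled Ret null is left. Leaving out the 4 libraries with Xist or Ddx3y against their sex label, they were 264 and 271 for the early steps in wild type and labelled Ret null, 5 and 1473 for the early and late (2489) interactions, and 184 and 2 for genotype at E10.5 and E12.5. Within females they were 310 and 18 for the early steps in wild type and labelled Ret null, 1918 for the late step labelled Ret null, 2614 for E14.5 against E10.5 labelled Ret null (5605), 75 and 895 for the early and late interactions, and 0 and 87 for genotype at E12.5 and at E14.5. Within males they were 331 and 67 for the early steps, 5257 for E14.5 against E10.5 in wild type (8122), 16 and 7 for the early and late interactions, and 14, 0 and 2 for genotype from the earliest stage to the latest. Upper-quartile scaling gave 1981 for the early step labelled Ret null. No filter gave 625 for genotype at E10.5. Without a trend genotype at E12.5 gave 0, and the fit of all libraries gave 2 there and 4554 at E14.5.

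Members called lower numbered 1 with a pseudocount of 0.1, which lost Lin28b, and 0 within males for the early step in wild type (2), and 4 within males for E14.5 against E10.5. For genotype at E10.5 (2) they numbered 1 without a filter, 1 with the replicate block, 1 without the 4 libraries, and 0 without the 7 or within males. Members called higher for genotype at E14.5 (2) numbered 1 without the 7, 5 in the fit of all libraries and 0 within either sex. For the early interaction (1) they numbered 2 with upper-quartile scaling or every library counted and 0 without the 7, without the 4 or within males. For the late interaction (2) they numbered 4 with every library counted, 1 within females and 0 within males. The cause was not tested, and within 1 sex fewer samples enter the contrast.

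Leaving out each sample gave 298 to 735 genes and 1 to 2 members lower for the early step in wild type, 78 to 691 genes for that labelled Ret null, 51 to 417 genes and 0 to 2 members for the early interaction, and 1342 to 3563 genes and 2 to 4 members for the late one. For genotype it gave 179 to 1268 genes and 1 to 2 members at E10.5, 0 to 34 genes at E12.5, and 669 to 3554 genes and 1 to 3 members at E14.5.

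Replicate numbers did not pair samples: the correlation of deviations had a median of 0.00427 over 176 same-numbered pairs and -0.000518 over 418 others. With the replicate block, and every library counted, genotype at E10.5 called Lin28b (-0.69) and not Lin28a (-0.99). The early step labelled Ret null then gave 1254 genes, genotype at E12.5 0 and at E14.5 1122. At E14.5 few fragments limit Lin28a, at 6.25 to 26.6 per library where the interval allowed an estimate in wild type.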
